A study of Mus musculus with 12 samples.

Results

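RNA polymerase II (Pol II) occupancy was described here at 8 genes that encode transcription factors of the intestinal epithelium, Cdx1, Cdx2, Gata4, Gata6, Klf4, Klf5, Elf3 and Creb3l3. The genes were chosen by name, and all 8 are among the 6429 genes of both comparison tables deposited by the authors. The samples are chromatin immunoprecipitation sequencing (ChIP-seq) libraries of Pol II from the duodenal epithelium of mice, with 3 libraries each from wild-type (WT) villus, WT crypt and villus labelled as a double knockout (DKO) of Hnf4a and Hnf4g. Crypts were not taken from the knockout animals. WT mice received the oil vehicle. DKO mice received tamoxifen at 50 mg per kg on each of 2 days and were killed 1 day after the last dose. Epithelium was released with 3 mM EDTA, for 35 minutes from WT tissue and 25 minutes from mutant tissue, and crypts were passed through a 70 µm filter that retained villi. Genotype, tamoxifen and the EDTA time therefore cannot be told apart in the comparison of genotypes. The strain, the age, the knockout alleles and the driver of the recombinase are not given in the sources used here.

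Stem cells and their dividing progeny sit in the crypts, and the villi carry differentiated cells, most of them absorptive enterocytes. A small set of transcription factors gives this epithelium its identity. CDX1 and CDX2 are homeobox factors that specify intestine, GATA4 and GATA6 are zinc finger factors of endoderm, and GATA4 marks the proximal small intestine. KLF4 and KLF5 are Krüppel-like zinc finger factors, known for differentiating and for dividing epithelial cells respectively. ELF3 is an ETS factor of epithelia. CREB3L3, also called CREBH, is a membrane-bound bZIP factor of liver and enterocytes that is cleaved to enter the nucleus and acts on lipid genes. HNF4A and HNF4G are nuclear receptors that work beside these factors in enterocytes. Pol II ChIP measures how much polymerase sits on a gene, not its mRNA. In a bulk sample, fewer cells of a type and less Pol II per cell cannot be told apart.

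Promoter sequences were matched by symbol in the RefSeq promoter table for 4 of the 8 genes, Cdx2, Klf4, Elf3 and Creb3l3. Cdx1, Gata4, Gata6 and Klf5 had no entry there, so the genes shown follow from availability and not from their values. Each run is the 250 bases before the transcription start, written 5′ to 3′ on the gene's strand, from build GRCm38.p6. Capitals mark matches, on either strand, to short strings of letters that the named factors are known to prefer, and matches to the KLF string and to the GC box can overlap. The GATA factors were searched as GATAA in every promoter of the table. The string for the CDX factors was TTTAT, and the one for the Krüppel-like factors was CCNCNCCC. The GC box was searched as GGGCGG, and the ETS string was GGAAG. For factors that bind the cyclic AMP response element the search used TGACG, a part of that element. The CCAAT box and the TATA box were searched as CCAAT and, for the latter, as TATAAA. For HNF4 the string was CAAAGTCCA. Creb3l3 has a pair of listed starts, here called the outer and the inner start. The Cdx2 run lies at chr5:147307250-147307499, Klf4 at chr4:55532476-55532725, Elf3 at chr1:135258473-135258722, the outer Creb3l3 run at chr10:81098873-81099122 and the inner one at chr10:81092592-81092841, all on the minus strand.
Cdx2: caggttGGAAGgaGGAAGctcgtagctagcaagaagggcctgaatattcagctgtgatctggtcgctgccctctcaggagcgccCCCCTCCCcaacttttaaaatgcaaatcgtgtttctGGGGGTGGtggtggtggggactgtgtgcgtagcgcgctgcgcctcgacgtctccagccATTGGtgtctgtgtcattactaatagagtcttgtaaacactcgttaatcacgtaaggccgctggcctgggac
Klf4: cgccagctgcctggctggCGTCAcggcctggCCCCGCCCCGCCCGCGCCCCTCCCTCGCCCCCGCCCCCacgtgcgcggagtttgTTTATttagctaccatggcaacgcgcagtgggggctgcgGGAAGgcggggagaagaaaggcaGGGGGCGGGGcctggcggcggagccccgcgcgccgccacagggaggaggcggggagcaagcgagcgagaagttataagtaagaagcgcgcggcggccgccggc
Elf3: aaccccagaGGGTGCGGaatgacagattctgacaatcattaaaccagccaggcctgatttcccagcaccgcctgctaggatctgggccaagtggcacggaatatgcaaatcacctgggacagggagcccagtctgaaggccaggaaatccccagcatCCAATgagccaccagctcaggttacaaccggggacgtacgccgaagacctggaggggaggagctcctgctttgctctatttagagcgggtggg
Creb3l3 outer start: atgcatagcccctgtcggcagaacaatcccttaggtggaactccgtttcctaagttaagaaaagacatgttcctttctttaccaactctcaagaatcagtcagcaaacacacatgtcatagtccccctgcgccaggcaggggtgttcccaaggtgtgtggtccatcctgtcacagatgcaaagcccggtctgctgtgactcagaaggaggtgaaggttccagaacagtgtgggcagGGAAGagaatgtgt
Creb3l3 inner start: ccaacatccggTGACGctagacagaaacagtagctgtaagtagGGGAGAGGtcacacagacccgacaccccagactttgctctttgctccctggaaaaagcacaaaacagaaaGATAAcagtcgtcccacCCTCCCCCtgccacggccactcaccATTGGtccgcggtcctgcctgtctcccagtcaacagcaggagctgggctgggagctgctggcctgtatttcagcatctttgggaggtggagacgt

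The Klf4 promoter was the richest in G and C of these runs, at 74.0%, above 95.1% of all promoters in the table. It held 9 matches to the KLF letters, some overlapping, and 4 to the GC box. A KLF match was found in 45.9% of 32851 promoters and a GC box in 32.7%. The outer Creb3l3 promoter had a GC content of 50.8% and 1 match, to the ETS letters, which 64.1% of promoters held. The inner Creb3l3 promoter held the GATA string from base 137 to base 133 before the start and the cyclic AMP string from base 239 to base 235. The former was present in 22.6% of all promoters and the latter in 17.8%. The Klf4 promoter also held the cyclic AMP string, on the opposite strand, from base 232 to base 228 before the start. None of the 5 runs held the HNF4 string, which was found in 0.384% of promoters, and none held the TATA box, found in 12.4%. Klf4 had the single match to the CDX string, present in 37.3% of promoters. A match describes letters only.

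The authors counted Pol II over promoter and gene body windows of transcripts. The 8 genes had 10 transcripts with windows of each kind, among 44308 promoter windows and 41048 gene body windows. Elf3 and Gata4 each had a pair of transcripts with identical windows. In the authors' coordinates (build mm9), the promoter windows lay on chromosome 18 from 61195552 to 61195953 for Cdx1, on chromosome 5 from 148118524 to 148118925 for Cdx2, on chromosome 14 from 63863807 to 63864208 for Gata4 and on chromosome 18 from 11052408 to 11052809 for Gata6. That of Klf4 lay on chromosome 4 from 55545046 to 55545447, that of Klf5 on chromosome 14 from 99697810 to 99698211, that of Elf3 on chromosome 1 from 137154748 to 137155149 and that of Creb3l3 on chromosome 10 from 80561316 to 80561717. Each promoter window was 402 bp long and began 100 bp before the start site. The gene bodies ranged from the 4899 bp transcript span of Elf3 to the 46358 bp span of Gata4. The Creb3l3 span of 14540 bp is close to the 14544 bp between the outer start and the gene's end in RefSeq, while the inner start lies 8263 bp from that end. By length, the counted windows are those of the outer start, which places the inner start inside the gene body window. Gata6 was the one gene of the 8 whose windows overlapped those of another gene. Its promoter window shared 258 bp with that of Gata6os, an antisense noncoding gene that starts beside it, and all 402 bp of it lay inside the gene body window of Gata6os. The gene body windows of both shared 58 bp. The file headers record no use of strand.

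**Figure D1:**
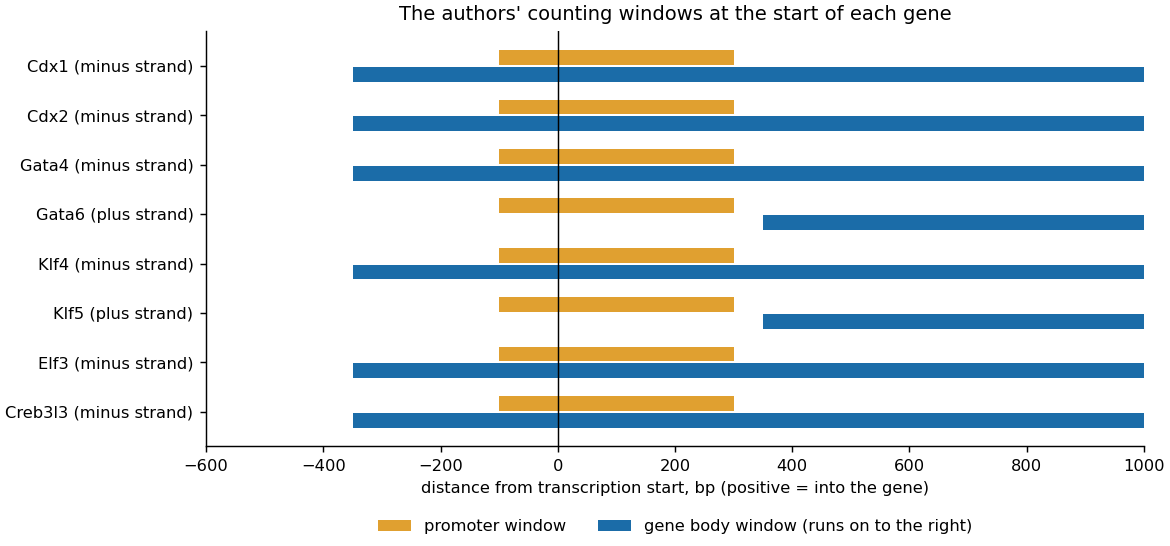
Counting windows of the 8 genes near the transcription start, in bp along the gene, with the promoter window above and the gene body window below for each gene. For Gata6 and Klf5, on the plus strand, the gene body window starts 350 bp after the start site. For the 6 genes on the minus strand it begins 350 bp before the start site and holds all 402 bp of the promoter window.

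The gene body windows differed by strand. For Gata6 and Klf5, on the plus strand, the window began 350 bp inside the gene and ended 500 bp before the transcript end. For Cdx1, Cdx2, Gata4, Klf4, Elf3 and Creb3l3, on the minus strand, the same offsets ran outward, so that each gene body window held the whole promoter window. The same was true of all 21190 minus-strand transcripts with both windows and of 0 of 19858 plus-strand transcripts. Counts over these windows were not used here, and which window the comparison tables rest on is not stated in them.

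The values below come from the authors' deposited tables in the DESeq2 results format. A log2 fold change is given with its standard error (SE) after ±, and a gene was called at an adjusted p under 0.05, with adjustment over all 6429 genes. The mean signal is the mean over libraries of counts divided by size factors. It ran from 172 at Cdx1 to 989 at Gata4 and lay above the all-gene median of 144 for all 8 genes. It is not divided by gene length, so it does not rank the genes. A level for each group was rebuilt from the mean signal and both deposited fold changes, taking groups of equal size and unshrunken fold changes. Values of single libraries were not used here, so a level has no SD of its own, and the error is that of the fold change. The labels give 3 libraries a group, and nothing in them says that these came from separate animals, so the p-values may measure technical spread.

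The tissue labels were read from marker genes. In the authors' deposited tables, 11 of 12 enterocyte markers were present, and in all 11 WT villus was called above both WT crypt and labelled-DKO villus, with medians of 1.45 and 2.44 on the log2 scale. Of 8 crypt stem markers 3 were present, and of these Axin2 was called higher in crypt and Sp5 higher in villus. Sp5 was also called higher in WT than in the labelled-DKO villi, at 2.75 ± 0.27, and Rnf43 lower, at -0.29 ± 0.12. Pcna, the single proliferation marker present of 6, was called lower in WT villus than in crypt, at -0.95 ± 0.20, and lower in WT than in labelled-DKO villi, at -0.62 ± 0.20. None of the 5 mesenchyme, 4 Paneth and 3 tuft markers was in the tables. Cd74, the single immune marker present of 6, was called higher in WT villus in both, at 0.72 ± 0.24 over crypt and 1.33 ± 0.24 over labelled-DKO villi. Cd74 and Sp5 thus moved in the direction of Klf4, Creb3l3 and Cdx2 in both comparisons, and Pcna in that of Gata4 and Klf5 between genotypes. The part of other cell types in the values of these genes was not tested. The targeted genes did not show less Pol II in the libraries labelled DKO. In the authors' deposited table of WT over labelled-DKO villus, Hnf4a had a log2 fold change of -0.54 ± 0.14 and Hnf4g of -1.45 ± 0.22, with DESeq2 adjusted p-values of 4.84e-04 and 7.81e-10. The deleted parts of these genes are not given in the sources used here, so this reading does not check the deletion. Directions between genotypes follow the table's name, and the standard errors of the tables were explained better with that sign than with it reversed.

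From crypt to villus, Pol II rose at Klf4, Creb3l3 and Cdx2 and fell at Cdx1, while Gata4, Gata6, Klf5 and Elf3 did not pass the test. By the authors' deposited values, 4 of the 8 genes were called, beside 37.4% of all genes. Of these, 3 were higher in villus, the direction of 18.6% of all genes, and 1 was lower, the direction of 18.8%. The median log2 fold change of the 8 genes was 0.24, against -0.04 for all genes. Between genotypes, Pol II was lower in labelled-DKO villus at Creb3l3, Klf4 and Cdx2 and higher at Gata4 and Klf5. Here 5 of the 8 genes were called, beside 51.9% of all genes. The share called higher in WT villus was 22.4% of all genes against 3 of the 8, and the share called lower was 29.5% against 2 of the 8. The median of the 8 genes was 0.07, against -0.08 for all genes. Both counts are near the background, and the genes moved in opposite directions. Both comparisons use the WT villus libraries, so their values are given side by side and not related to each other.

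**Figure D2:**
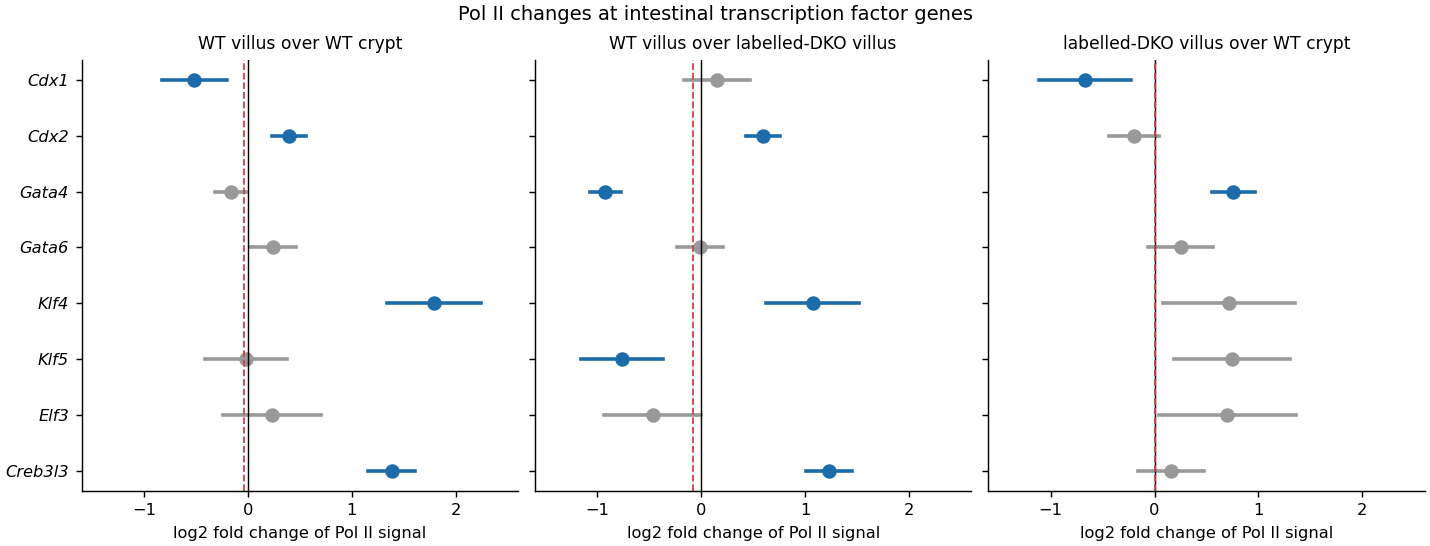
Log2 fold changes of Pol II signal at the 8 genes in the comparisons of WT villus with WT crypt, of WT villus with labelled-DKO villus and of labelled-DKO villus with WT crypt. Points are fold changes, bars are 95% intervals from the standard errors, blue marks an adjusted p under 0.05, and the dashed line is the median of all genes. Klf4 and Creb3l3 lie furthest to the right in the first panel, and Gata4 lies furthest to the left in the second.

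The caudal-type homeobox genes moved apart along the axis. Cdx2 had rebuilt levels of 268 normalised counts in WT crypt, 353 in WT villus and 234 in labelled-DKO villus. WT villus was the highest group. The authors' deposited table gave Cdx2 a log2 fold change of 0.40 ± 0.09 for villus over crypt, a 1.32-fold higher signal, with a DESeq2 adjusted p of 3.38e-05. For WT over labelled-DKO villus the deposited change was 0.59 ± 0.09, or 1.51-fold, with an adjusted p of 3.40e-11. Cdx1 had levels of 221 in WT crypt, 155 in WT villus and 139 in labelled-DKO villus, so crypt was its highest group. Its deposited change was -0.51 ± 0.16 for villus over crypt, a 1.43-fold higher signal in crypt, with an adjusted p of 0.00520. For Cdx1 the deposited change between genotypes was 0.15 ± 0.16, which did not pass (adjusted p 0.438, 95% interval -0.16 to 0.47). The log2 change of Cdx2 exceeded that of Cdx1 by 0.91 ± 0.18 between villus and crypt, with a 95% interval from 0.56 to 1.27. Between genotypes it exceeded it by 0.44 ± 0.18, with an interval from 0.09 to 0.80. These intervals treat the errors of different genes as independent.

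The GATA genes differed in the comparison of genotypes. Gata4 had rebuilt levels of 828 normalised counts in WT crypt, 739 in WT villus and 1401 in labelled-DKO villus. Labelled-DKO villus stood above both WT groups. In the authors' deposited table Gata4 changed by -0.92 ± 0.08 for WT over labelled-DKO villus, a 1.90-fold higher signal in the latter, with a DESeq2 adjusted p of 9.98e-33. Its standard error was the smallest of the 8 genes. Between villus and crypt the deposited value for Gata4 was -0.16 ± 0.08, with an adjusted p of 0.0781, so the WT groups were not told apart. Gata6 had levels of 439 in WT crypt, 519 in WT villus and 523 in labelled-DKO villus. Its deposited values were 0.24 ± 0.11 for villus over crypt, with an adjusted p of 0.0802, and -0.01 ± 0.11 between genotypes, with an adjusted p of 0.944. After centring on the median of all genes, the change of Gata6 between villus and crypt passed the threshold, at 0.28 with an adjusted p of 0.0378. The log2 change of Gata6 exceeded that of Gata4 by 0.40 ± 0.14 between villus and crypt (95% interval 0.14 to 0.67) and by 0.91 ± 0.14 between genotypes (0.65 to 1.18).

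The antisense neighbour Gata6os did not share the values of Gata6. It had, in the authors' deposited tables, a log2 fold change of 0.76 ± 0.15 for villus over crypt and of 1.02 ± 0.15 for WT over labelled-DKO villus, with adjusted p-values of 6.11e-06 and 1.53e-10. Its mean signal of 111 was below the 493 of Gata6. Reads in the shared stretches (258 bp between the promoter windows, 402 bp of the Gata6 promoter window inside the Gata6os gene body window, and 58 bp between the gene body windows) cannot be assigned to either gene, and their part in the value of Gata6 was not tested.

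The Krüppel-like genes showed the widest gap of the 3 family pairs compared. Klf4 had rebuilt levels of 117 normalised counts in WT crypt, 404 in WT villus and 192 in labelled-DKO villus. The WT villus level was the highest. The log2 fold change of Klf4 in the authors' deposited table for villus over crypt was 1.79 ± 0.23, a 3.46-fold higher signal, with a DESeq2 adjusted p of 3.51e-13, and 21 of 6429 genes had a larger one. For WT over labelled-DKO villus the deposited change was 1.07 ± 0.23, or 2.10-fold, with an adjusted p of 1.32e-05. In a test of whether the log2 change exceeds 0.5, Klf4 no longer passed between genotypes, with an adjusted p of 0.111. Neither did Klf5 and Cdx2 between genotypes or Cdx1 and Cdx2 between villus and crypt, with an adjusted p of 1 each, while Klf4 between villus and crypt, Creb3l3 in both comparisons and Gata4 between genotypes passed. Klf5 had levels of 708 in WT crypt, 701 in WT villus and 1186 in labelled-DKO villus. The WT levels lay together and the labelled-DKO level was higher. Its deposited values were -0.01 ± 0.20 for villus over crypt, with an adjusted p of 0.968 and a 95% interval from -0.41 to 0.38, and -0.76 ± 0.20 between genotypes, a 1.69-fold higher signal in labelled-DKO villus with an adjusted p of 5.74e-04. The log2 change of Klf4 exceeded that of Klf5 by 1.80 ± 0.31 between villus and crypt (95% interval 1.20 to 2.41) and by 1.83 ± 0.30 between genotypes (1.23 to 2.43). KLF4 is also known for goblet cell maturation, and of 5 goblet markers, all present, 4 were called higher in villus than in crypt, with a median of 0.51. Between genotypes Clca1 alone of them was called, higher in labelled-DKO villus, and the list's median was -0.07. The part of goblet cells in the values of Klf4 was not tested.

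Elf3 passed the test in neither deposited comparison. Its rebuilt levels were 439 normalised counts in WT crypt, 516 in WT villus and 713 in labelled-DKO villus. Labelled-DKO villus had the highest level, and the standard errors of Elf3 were the largest of the 8 genes. The authors' deposited tables gave Elf3 a log2 fold change of 0.23 ± 0.24 for villus over crypt, with a DESeq2 adjusted p of 0.476, and of -0.47 ± 0.24 for WT over labelled-DKO villus, with an adjusted p of 0.0880. The 95% interval of the second ran from -0.93 to 0.00.

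Creb3l3 had nearly the same level in WT crypt and labelled-DKO villus and a higher one in WT villus. The rebuilt levels were 196 normalised counts in WT crypt, 513 in WT villus and 219 in labelled-DKO villus. Its log2 fold change for villus over crypt was, in the authors' deposited table, 1.39 ± 0.12, a 2.61-fold higher signal, with a DESeq2 adjusted p of 1.96e-30. For WT over labelled-DKO villus it was 1.23 ± 0.11, or 2.34-fold, with an adjusted p of 1.93e-25. In the first comparison 85 genes had a larger change and in the second 290 did. Creb3l3 was the one gene of the 8 that passed against changes up to 0.5 and beyond a log2 change of 1 in both comparisons.

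**Figure D3:**
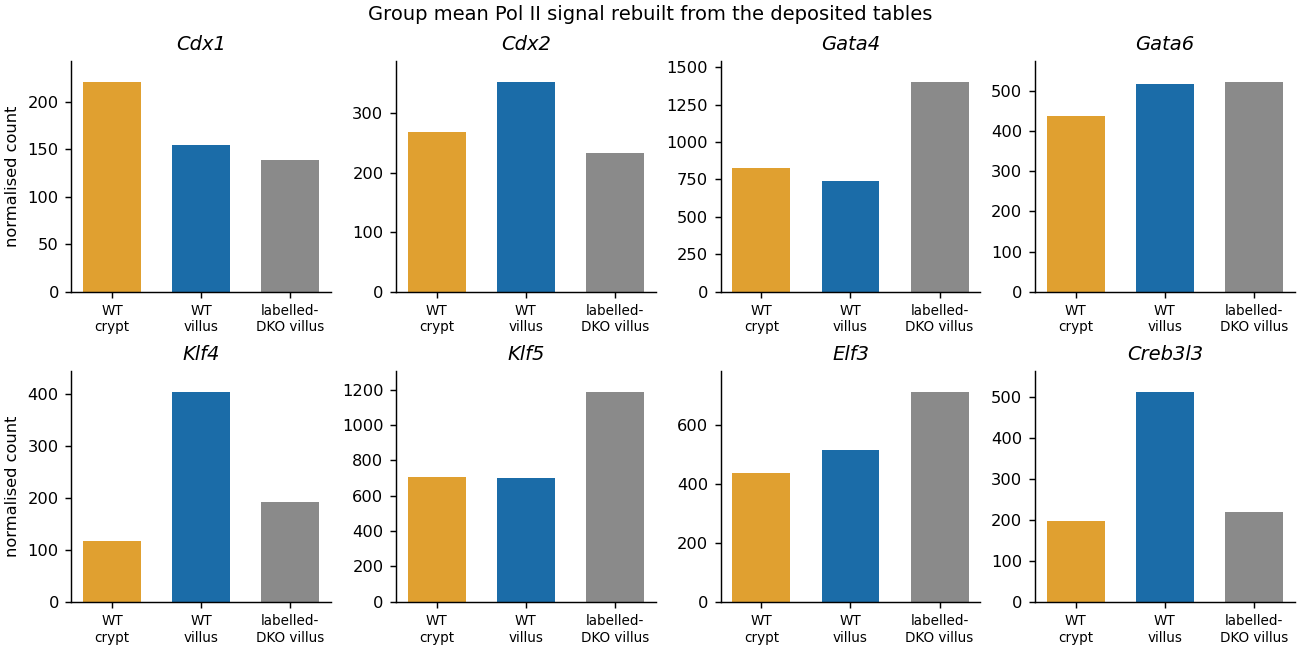
Mean Pol II signal of each group at the 8 genes, in size-factor-normalised counts, rebuilt from the mean signal and the fold changes of the authors' deposited tables, with no error bars because values of single libraries were not used. Each panel has its own axis from 0. WT villus is the highest bar at Cdx2, Klf4 and Creb3l3, WT crypt at Cdx1, and labelled-DKO villus at Gata4, Klf5 and Elf3, while the villus bars at Gata6 are nearly level.

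Labelled-DKO villus was then set against WT crypt, to order all 3 groups. The log2 fold change was the difference of the deposited ones, with the root of the summed squared standard errors as an upper limit of its own error. By a Wald test with Benjamini-Hochberg adjustment, 2 of the 8 genes were called, beside 13.6% of all genes. Gata4 was higher in labelled-DKO villus, at 0.76 ± 0.11 with an adjusted p of 1.85e-10, and so were 6.41% of all genes. Cdx1 was lower, at -0.67 ± 0.23 with an adjusted p of 0.0287, as were 7.19% of all genes. Klf5 at 0.74 ± 0.29, Klf4 at 0.72 ± 0.32 and Elf3 at 0.70 ± 0.34 had changes nearly as large as Gata4 and larger errors, with adjusted p-values of 0.0616, 0.133 and 0.170. A standard error was also rebuilt from both deposited standard errors and the group levels. It assumed that the count noise of WT villus was the mean of that of the other groups. The remaining spread of a gene was taken as equal in all groups. With this error these 3 genes passed, with adjusted p-values of 0.00149, 0.00978 and 0.0149 (Wald test, Benjamini-Hochberg). It called 5 of the 8 genes, beside 29.9% of all genes. Creb3l3 at 0.16 ± 0.16, Cdx2 at -0.20 ± 0.12 and Gata6 at 0.25 ± 0.16 passed with neither error. With the upper limit their adjusted p-values were 0.643, 0.324 and 0.345. The 95% interval of Creb3l3 ran from -0.16 to 0.47, and that of Cdx2 from -0.43 to 0.04.

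The order of the levels thus differed from gene to gene. At Creb3l3 and Cdx2 WT villus was above both other groups. The difference between those other groups passed the test with neither standard error. At Klf4 WT villus was also the highest, and whether labelled-DKO villus lay above crypt depended on the standard error used. At Gata4 labelled-DKO villus was the highest and the WT groups were not told apart. Klf5 also had its highest level there, above WT villus, and its difference from crypt again depended on the standard error. At Elf3 labelled-DKO villus had the highest level too, and neither deposited comparison told its groups apart. Whether labelled-DKO villus lay above crypt at Elf3 also depended on the standard error. At Cdx1 crypt was the highest and the villus groups were not told apart. No neighbours in the order of Gata6 passed the test, though WT villus over crypt passed after centring on the median of all genes.

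Genes with a pattern near each member were sought among 3215 genes whose mean signal was not below the median, by the Euclidean distance over the 2 deposited log2 fold changes. The nearest gene to Creb3l3 was Tob1, at a distance of 0.033, and the nearest to Klf4 were Ace and Gm11651, at 0.14 and 0.19. The nearest were Ahr and Tesmin to Gata4 (0.014 and 0.040), Retreg1 and Ccnl1 to Klf5 (0.012 and 0.029), and Slc26a3 and Ucp2 to Elf3 (0.025 and 0.032). Cdx2 lay nearest to Chmp4c and Slc25a10 (0.024 and 0.028), Cdx1 to Adgrg7 and Mid1 (0.013 and 0.067) and Gata6 to Slc5a10 and Rnf44 (0.014 and 0.022). The number of genes within a distance of 0.1 was 0 for Klf4, 2 for Creb3l3, 4 for Cdx1 and 15 for Gata4. It was 18 for Elf3, 21 for Klf5, 37 for Cdx2 and 52 for Gata6. Klf4 and Creb3l3 had the lowest counts, and they ranked 22 and 86 from the highest of 6429 genes for villus over crypt. A low count at such a rank does not show a distinct pattern. The distances are below the standard errors of the changes for all 8 genes.

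Counts of called genes in the lists that follow stand beside a background, over all genes, of 18.6% called higher and 18.8% lower for villus over crypt, and of 22.4% higher and 29.5% lower for WT against labelled-DKO villi. Relatives of the 8 genes were read from a list of 28 GATA, KLF, ETS, CREB3 and CDX family genes, of which 15 were in the tables. For villus over crypt the authors' deposited table called 4 higher, Klf6 at 1.16 ± 0.25, Creb3l2 at 0.74 ± 0.12, Gata5 at 0.73 ± 0.13 and Klf3 at 0.54 ± 0.15, and Creb3l4 was called lower at -0.48 ± 0.13. The list's median was 0.00. For WT over labelled-DKO villus 3 were called higher and 8 lower, with a median of -0.31. The largest changes were at Klf10 (-1.61 ± 0.19), Gata5 (1.26 ± 0.13), Creb3l2 (1.25 ± 0.12) and Klf11 (-0.79 ± 0.12). Creb3l2 was thus lower in labelled-DKO villus, as was its relative Creb3l3. The other CREB3 relatives in the tables, Creb3 (-0.43 ± 0.15) and Creb3l4 (-0.32 ± 0.12), were called higher there. Gata5 was lower in labelled-DKO villus while its relative Gata4 was higher.

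Among 25 other transcription factors of the gut, 18 were in the tables. Along the axis from crypt to villus the authors' deposited table called 3 higher, among them Pdx1 (0.46 ± 0.17) and Tcf7l2 (0.18 ± 0.06), and 3 lower, Sox9 (-0.68 ± 0.18), Onecut2 (-0.37 ± 0.09) and Foxa1 (-0.36 ± 0.13), with a median of -0.03. PDX1 is a homeobox factor of the pancreas and duodenum, and SOX9 an HMG-box factor of crypt and Paneth cells. In the comparison of genotypes 2 passed with more signal in WT and 8 with more in labelled-DKO villus, with a median of -0.11, and large changes were seen at Hnf4g (-1.45 ± 0.22), Isx (-1.19 ± 0.13) and Foxa1 (-0.88 ± 0.13).

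Of 20 genes described as targets of the 8 factors, 14 were in the tables. By the authors' deposited values, 12 were called higher in villus than in crypt and Ccnd1 was called lower, at -0.56 ± 0.19, with a list median of 1.48. The largest changes were at the alkaline phosphatases Akp3 (2.28 ± 0.50) and Alpi (1.78 ± 0.46), and at the apolipoprotein genes Apoa4 (2.11 ± 0.20) and Apoc2 (1.73 ± 0.19). Akp3 and Alpi are similar copies, and read pairs that fit both may fall under the mapping quality limit of 30. In the comparison of genotypes 9 targets passed with more signal in WT villus and 3 with more in labelled-DKO villus, and the median was 2.03. The largest changes were at Apoa4 (3.87 ± 0.22), Alpi (2.65 ± 0.46), the fatty acid binding protein gene Fabp2 (2.46 ± 0.45) and Apoc3 (2.44 ± 0.17). The 3 higher in labelled-DKO villus were Isx (-1.19 ± 0.13), Ccnd1 (-0.74 ± 0.18) and the intestinal cadherin gene Cdh17 (-0.38 ± 0.16). APOC2, like APOA4, is a described target of CREB3L3. The deposited changes of Apoc2 were 1.73 ± 0.19 between villus and crypt and 2.19 ± 0.19 between genotypes, beside 1.39 and 1.23 at Creb3l3, and the differences between these genes were not tested. Some of these targets, among them Alpi, Apoa4 and Fabp2, are also enterocyte markers, and Isx is in the list of other factors too.

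**Figure D4:**
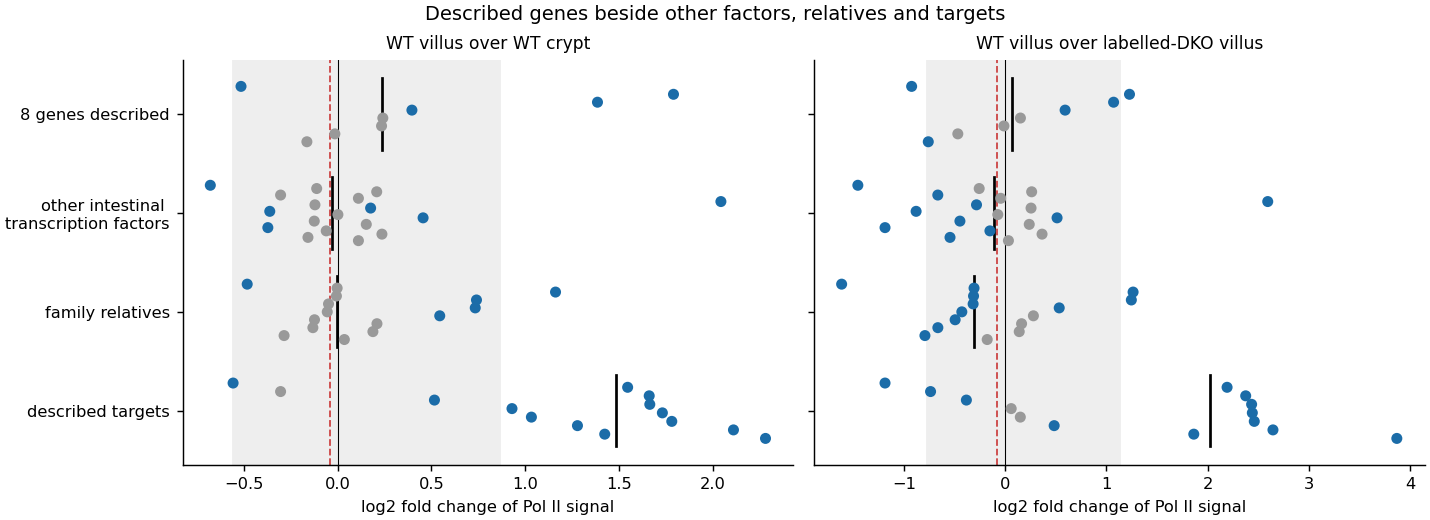
Log2 fold changes of Pol II signal from the authors' deposited tables for the 8 genes, 18 other intestinal transcription factors, 15 family relatives and 14 described targets. Each point is a gene (blue where the adjusted p is under 0.05), black bars are list medians, the dashed line is the median of all genes, and the grey band holds the middle of all genes between the 5th and 95th percentiles. The targets lie mostly to the right in both panels, while the 8 genes spread to both sides of 0.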

How the data were processed

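The authors' Pol II ChIP-seq reads were aligned to mm9, and the submitters' processing notes name Bowtie2 2.2.6, SAMtools 0.1.19, Picard, featureCounts and DESeq2 1.36.0. Read pairs of mapping quality at least 30 were counted with featureCounts 2.0.3 without duplicates and with overlaps allowed, per the file headers. The 18 columns of per-library counts bear no names, could be matched to no sample and were not used, and depth per library is not known here. Window positions and lengths (bp) were used as deposited.

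The deposited DESeq2 tables give, per the file headers, a mean signal (counts over size factors), a log2 fold change with its standard error, and a Wald score with its p-value, raw and adjusted. The window counted, gene filter and shrinkage are not stated. Signs follow the tables' names. With these signs, rebuilt group means explained 90.1% of the sum of squares of the difference between the tables' squared standard errors, and at most 51.6% with other signs. Group levels, the comparison of labelled-DKO villus with crypt, intervals and adjustments were computed with Python 3.11.15, numpy 2.4.6, pandas 2.3.3 and scipy 1.17.1, and tested on simulated data. The planned edgeR tests of window counts were not run. Alternatives were a stricter threshold, a limit of 1, a test against changes up to 0.5, centring, a mean signal of at least 100 and a rebuilt standard error.

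All 8 genes are reported. From other lists every called gene is named where at most 8 were called, and otherwise the 4 with the largest absolute change, apart from genes not reported here. Beyond these, Gata6os was named for its overlap, and the targeted genes and the markers Axin2, Sp5, Rnf43, Pcna, Cd74 and Clca1 for label checks. Ccnd1, Isx and Cdh17, and Creb3 and Creb3l4 between genotypes, were named after their values were seen. No enteroendocrine marker was called, and 1 of 4 was present. The 8 genes and all lists were chosen with earlier results of these data known.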

Additional observations from a re-analysis of the deposited data

How the results depend on the processing

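The number of the 8 genes called was 4 for WT villus over crypt, 5 for the genotypes and 2 for labelled-DKO villus over crypt. With a log2 fold change beyond 1 the counts were 2, 2 and 0, beside 285, 559 and 223 of all genes. Against changes up to 0.5 they were 2, 2 and 0, beside 252, 637 and 90 of all genes. These settings can only lower a count. By a Wald test at an unadjusted p under 0.05 the third comparison had 5 of the 8 genes, beside 24.7% of all genes. With an adjusted p under 0.01 the third count was 1, beside 558 of all genes. With the rebuilt standard error it was 5, beside 1923 of all genes. Centring turned the sign of values near 0 that were not called, Klf5 between villus and crypt to 0.027 and Gata6 between genotypes to 0.070. The remaining settings left each count within 1.5 times, and with a mean signal of at least 100 Klf5 passed in the third comparison, with an adjusted p of 0.0484 (Wald test, Benjamini-Hochberg). Of the values recomputed for single genes, 106 stayed on the same side of the threshold with the same sign, 15 dropped below it, 5 passed it and 2 changed sign. The settings of the third comparison other than centring and the rebuilt standard error were chosen after seeing the data. No paired analysis was possible because values for single libraries could not be tied to samples. Leaving out each replicate, other tools and other filters on window counts were not run for the same reason.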
